A study of Mus musculus with 8 samples.

Results

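The RNA levels of 8 mast cell genes were followed in subcutaneous tumours of Tlr3/7/9-/- (KO) and wild-type (WT) mice. They comprised the granule proteases Mcpt4, Cma1, Cpa3, Tpsb2 and Tpsab1, the receptors Kit and Ms4a2, and Hdc, which encodes the enzyme that makes histamine. The genes were picked by symbol as established mast cell genes, with earlier results of these data known. Where several probe sets named a gene, the 1 with the highest mean signal was read. The 8 genes are part of 18194 genes with a probe set that names a single gene, and 12 such probe sets belong to them. Of the 8 genes, 6 reached the signal required for testing, 78.6 on average, and Tpsb2 and Ms4a2 fell short of it. The last 2 were fitted over all 18194 genes instead.

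MOPC cells, a murine oropharyngeal carcinoma line, had been injected under the skin of C57BL/6 mice, and total RNA of the dissected tumour was read on 1 Affymetrix mouse array per sample. The groups were KO at day 6, WT at day 6, KO at day 4 and WT at day 4 after injection, with 2 arrays each. The KO hosts lacked the endosomal receptors Tlr3, Tlr7 and Tlr9. The same line, not knocked out, was injected in all 4 groups, so the missing receptors concern the host's cells alone, mast cells included. The day 6 hosts were 4 mice, described as 8 to 16 weeks old. The methods give 6 to 17 weeks and both sexes for the study's WT and Tlr3/7/9-/- mice as a whole, without the age of the day 4 hosts or whether each day 4 array came from a mouse of its own. All p-values therefore measure the spread between these samples.

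Signals were scaled by the authors to the same trimmed mean on every array, and array medians ran between 133.2 and 175.2. Tlr7 read 10.8 to 80.1 in the KO arrays, against 382.9 to 673.4 in the WT arrays, while Tlr3 was less clearly apart (224.0 to 427.2 in KO, 543.9 to 811.1 in WT) and Tlr9 lay below the filter. Where these probes lie relative to the deletions is not stated. Xist, read from the inactive X chromosome of females, had signals of 5579.1 to 7121.0 at day 6 and 44.6 to 142.1 at day 4, and the Y-linked Eif2s3y had 10.2 to 33.0 at day 6 and 798.1 to 1176.7 at day 4, so that day and host sex cannot be told apart. The summed signal of 9 skeletal muscle genes was 54060 in KO day 6 replicate 2, 20889 in KO day 4 replicate 2 and 166550 in WT day 4 replicate 2, against 749 to 1050 in the other 5 arrays. KO day 6 replicate 2 was also the array with a summed signal of 31268 for 10 cornified skin genes, against 982 to 1229 elsewhere.

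Mast cells are long-lived leukocytes that settle in connective tissue, with many around the vessels and hair follicles of mouse skin, and they store proteases, histamine and heparin in granules that are released when IgE bound to their surface is crosslinked. They depend on stem cell factor, the ligand of KIT, for survival. Connective tissue mast cells of the mouse carry the chymase MCPT4, the product of Cma1 (also called mast cell protease 5), the tryptases and carboxypeptidase A3, whereas mucosal mast cells carry MCPT1 and MCPT2 instead. In whole-tumour RNA, fewer mast cells and less RNA of a gene per cell cannot be told apart.

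Mcpt4 and Cma1 belong to the chymase cluster on chromosome 14, in which Mcpt1, Mcpt2 and Mcpt8 also lie, and Tpsab1 and Tpsb2 are adjacent genes on chromosome 17. Cpa3 lies on chromosome 3, Kit on chromosome 5, Ms4a2 on chromosome 19 and Hdc on chromosome 2. The proteases Cpa3, Mcpt4 and Cma1 are shown here with the 250 bases before their start sites because their signals shared the 2 highest arrays and the lowest. The sequences are RefSeq's for GRCm38.p6 (chr3:20242182-20242431, chr14:56062311-56062560 and chr14:55944676-55944925, all on the minus strand), written 5′ to 3′, with each match to GATAA, or to its reverse complement TTATC, in capitals. That motif is the core of a site for GATA factors, of which GATA2 is needed by mast cells.
Cpa3: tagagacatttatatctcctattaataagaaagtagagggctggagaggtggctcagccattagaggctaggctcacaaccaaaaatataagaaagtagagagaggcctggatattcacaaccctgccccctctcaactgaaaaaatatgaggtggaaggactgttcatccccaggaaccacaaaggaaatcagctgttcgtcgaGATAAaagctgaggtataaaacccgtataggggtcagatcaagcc
Mcpt4: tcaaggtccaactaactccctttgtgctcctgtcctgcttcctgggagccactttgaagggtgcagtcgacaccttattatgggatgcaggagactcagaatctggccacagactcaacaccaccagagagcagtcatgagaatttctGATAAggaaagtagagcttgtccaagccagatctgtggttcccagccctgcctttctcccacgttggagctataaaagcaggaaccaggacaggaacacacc
Cma1: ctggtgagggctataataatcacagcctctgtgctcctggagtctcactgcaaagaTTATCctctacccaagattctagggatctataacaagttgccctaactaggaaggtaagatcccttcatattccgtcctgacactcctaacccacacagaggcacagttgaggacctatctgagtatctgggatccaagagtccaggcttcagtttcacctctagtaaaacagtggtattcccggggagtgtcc
Each of these windows held 1 match, beginning 45 bases before the start of Cpa3, 102 bases before that of Mcpt4 and 194 bases before that of Cma1. The window of Ms4a2 held 3 matches, and those of Kit and Hdc held 0. A match stood in 22.6% of 32851 promoter windows of this length, and a match is a description of letters, not of binding. Promoter sequences of the tryptase genes were not used here.

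The comparison of KO with WT hosts addressed whether mast cell RNA in the tumour differed between them at day 6 or at day 4. At day 6, 0 of the 6 tested genes passed limma's moderated test at an adjusted p of 0.05, and over all 12976 tested genes 0.0154% were called. At an unadjusted p under 0.05 limma passed 0 of 6, beside 6.35% of all tested genes. Their log2 fold changes ran from -0.003 for Kit to 1.41 for Hdc, 5 of 6 above 0, with a median of 0.45 beside -0.01 over all tested genes. At day 4, 0 of 6 passed as well (background 0.0154%), 1 had an unadjusted p under 0.05 (7.11% of all tested genes), and 3 of the 6 log2 fold changes lay on each side of 0, with a median of 0.04 beside 0.008 over all genes. The t-test that the study's methods name, without adjustment, passed 1 of 6 at day 6 (Hdc), beside 5.86% of all tested genes, and 1 of 6 at day 4 (Kit), beside 6.28%, and after Benjamini-Hochberg it passed 0 of 6 on either day. Averaged over both days, 0 of 6 passed limma's test, against a background of 0.0308%, and 0 of 6 had an unadjusted p under 0.05, against 8.69%, and the median was 0.23. With 2 arrays against 2, an exact permutation test of a single gene could not give a two-sided p below 0.333, so none was used.

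**Figure D1:**
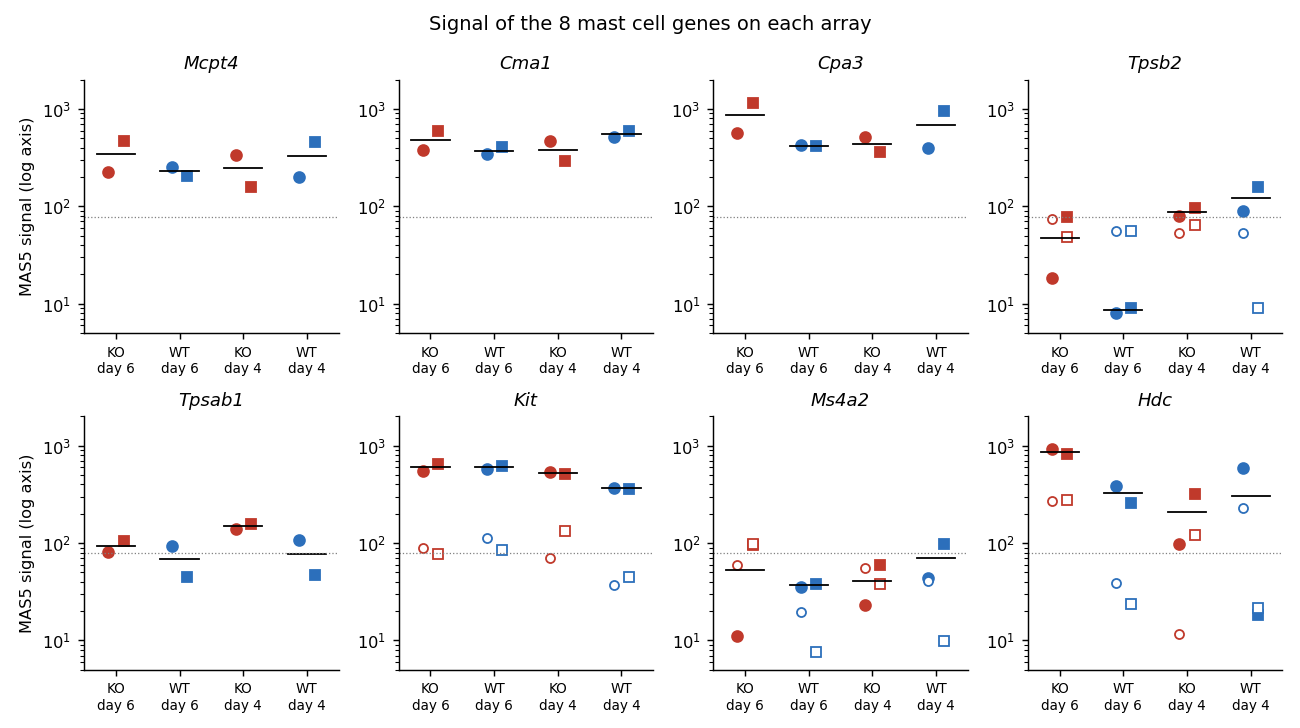
MAS5 signal on a log axis for each of the 8 genes, by group (KO in red, WT in blue), with a circle for replicate 1, a square for replicate 2, filled symbols for the probe set used, open symbols for the gene's other probe set where it has one, and a bar at the group's mean signal. The dotted line is the filter at a signal of 78.6, under which most values of Tpsb2 and Ms4a2 lie. For the probe set used, Kit's 2 arrays stand close together in every group, and Hdc is highest in KO at day 6.

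Among the proteases, Cpa3, the carboxypeptidase stored with the chymases, read 569.1 and 1165.8 in KO tumours of day 6, against 423.0 and 416.8 in WT tumours of day 6. Both KO arrays were above both WT arrays, although the KO arrays stood further apart from each other than the lower of them stood from WT. The log2 fold change was 0.93 (SE 0.44, limma adjusted p = 0.802), and it was 0.42 without KO day 6 replicate 2 and 1.44 without KO day 6 replicate 1. At day 4 the order was mixed, with 513.9 and 359.2 in KO and 394.5 and 963.8 in WT (log2 fold change -0.51, SE 0.44, limma adjusted p = 0.902).

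Mcpt4, the chymase of connective tissue mast cells that cleaves angiotensin and matrix proteins, read 225.9 and 472.5 in KO at day 6 and 256.5 and 206.2 in WT at day 6. It read 334.8 and 159.2 in KO at day 4 and 199.5 and 461.5 in WT at day 4. The groups overlapped on both days, and the log2 fold changes were 0.48 at day 6 and -0.37 at day 4 (SE 0.50 each, limma adjusted p = 0.898 and 0.951). Cma1, whose product in the mouse has elastase-like activity, read 377.8 and 593.4 in KO and 341.6 and 406.0 in WT at day 6 (log2 fold change 0.34, SE 0.29, limma adjusted p = 0.881). At day 4 both KO arrays, 470.4 and 294.2, lay below both WT arrays, 510.1 and 592.8, by -0.54 on the log2 scale (SE 0.29, limma adjusted p = 0.787).

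These 3 proteases shared their 2 highest arrays and their lowest. Each was highest in KO day 6 replicate 2, next highest in WT day 4 replicate 2, and lowest in KO day 4 replicate 2. Over the 8 arrays their log2 signals correlated at r = 0.92 for Mcpt4 with Cpa3, 0.80 for Mcpt4 with Cma1 and 0.76 for Cma1 with Cpa3, given as a description of arrays that also differ in tissue content. By contrast, Tpsab1 was at r = -0.31 to -0.24 with the 3, Kit at -0.36 to -0.02 and Hdc at -0.41 to -0.20. Tpsb2 and Ms4a2, below the filter, were left out of these correlations. Ms4a2 also had its 2 highest signals in WT day 4 replicate 2 (97.3) and KO day 6 replicate 2 (95.2), but it was lowest in KO day 6 replicate 1 (11.1). On its other probe set WT day 4 replicate 2 was next to lowest (9.8). Searching all tested genes for the profile most like that of Mcpt4 placed Cpa3 at rank 5 (r = 0.915), behind Sh3kbp1 (r = 0.979), Top3b, Phf8 and Chkb. The same search for Cpa3 placed Mcpt4 at rank 7. Neither was among the 10 genes most like Cma1, which ran from Rnf44 (r = 0.974) to Fam114a2 (r = 0.884).

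The highest 2 arrays for these proteases were the 2 with the most muscle RNA, yet KO day 4 replicate 2, the third array with muscle RNA, gave the lowest signal of all 3 proteases. All 9 muscle genes, of which Acta1 and Mylpf had the highest mean log2 signal over the 8 arrays, passed the filter, and their sums ranged over 749 to 54060 in KO day 6, 888 to 1050 in WT day 6, 977 to 20889 in KO day 4 and 876 to 166550 in WT day 4. Of the 10 cornified skin genes, 5 passed, and by the same mean Krt10 and Lor were highest. Sums of the 9 fibroblast and dermis genes, all above the filter and with Col3a1 and Col1a2 highest by that mean, ranged over 143134 to 153882 in KO day 6, 136378 to 160275 in WT day 6, 174089 to 178688 in KO day 4 and 200134 to 205767 in WT day 4. How much the surrounding tissue contributes to the protease signals was not tested. Without KO day 6 replicate 2 and WT day 4 replicate 2 together, the KO effect of Mcpt4 at day 6 was -0.03 on the log2 scale and those of Mcpt4 and Cpa3 at day 4 were 0.20 and 0.12.

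**Figure D2:**
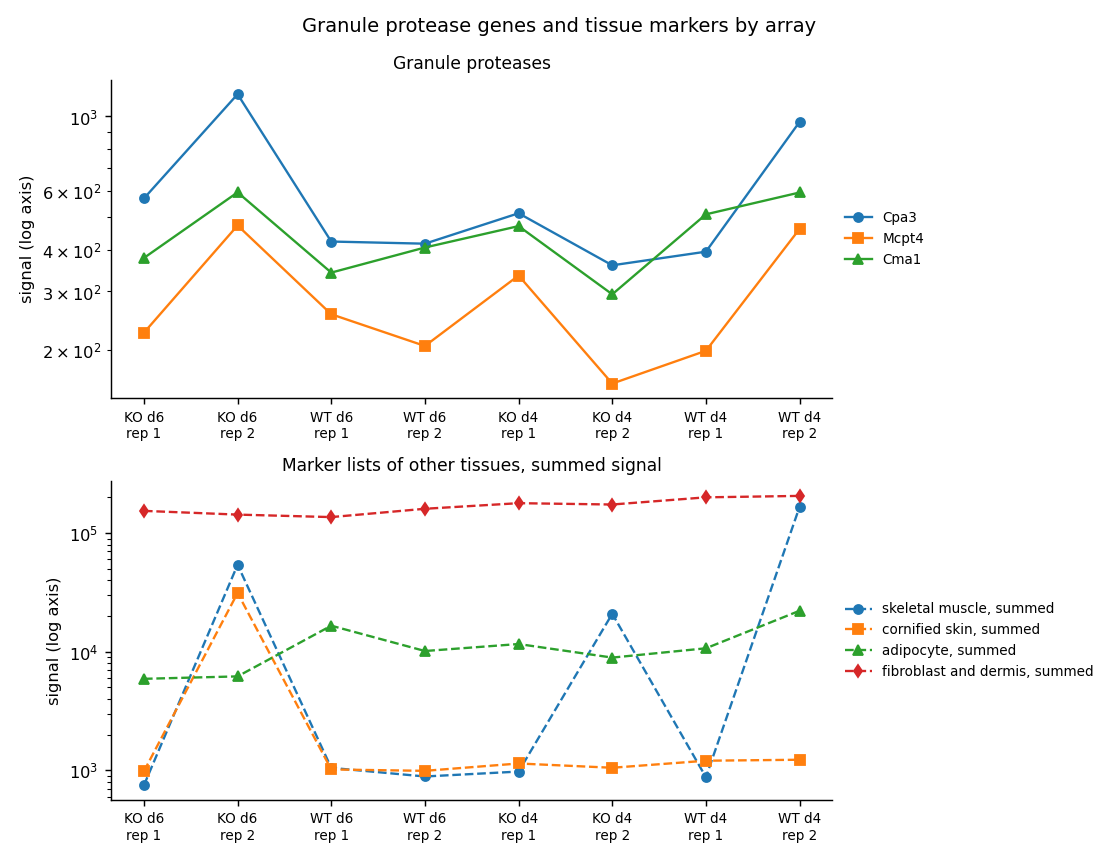
Signal on log axes by array: above, the proteases Cpa3, Mcpt4 and Cma1; below, the summed signals of marker lists for skeletal muscle, cornified skin, adipocytes, and fibroblasts with dermis. All 3 proteases peak in KO day 6 replicate 2 and WT day 4 replicate 2, where muscle sums are 54060 and 166550, and are lowest in KO day 4 replicate 2, where the muscle sum is 20889.

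Of the tryptase genes, Tpsab1 did not follow them, and Tpsb2 did so only in part. Tpsb2 was highest in WT day 4 replicate 2 (156.4), but next highest in KO day 4 replicate 2 (96.7), where the 3 proteases were lowest. Tpsab1, which RefSeq annotates as a transcribed pseudogene in the C57BL/6J assembly, read 81.2 and 106.1 in KO at day 6 and 92.6 and 45.1 in WT at day 6. At day 4 it read 140.3 and 158.6 in KO, both above the 107.2 and 46.8 of WT (log2 fold change 0.91, SE 0.47, limma adjusted p = 0.765). Tpsb2, the tryptase that forms active tetramers with heparin, read 18.2 and 77.1 in KO and 8.1 and 9.0 in WT at day 6, and 80.2 and 96.7 in KO and 89.2 and 156.4 in WT at day 4. Its KO effect was 1.20 at day 6 and -0.37 at day 4 (SE 0.53 each, limma adjusted p = 0.801 and 0.960 over all genes). The day 6 value was 0.48 without KO day 6 replicate 2 and 1.92 without KO day 6 replicate 1. The other Tpsb2 probe set gave 0.09 and 0.85, and since the tryptases are close paralogues, how far each probe set reads the neighbouring gene was not tested.

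Of the receptors, Kit, the stem cell factor receptor, had the tightest replicates of the tested genes, with a residual SD of 0.09 on the log2 scale against 0.34 to 1.58 for the other 5. It read 552.9 and 643.7 in KO at day 6, against 576.6 and 620.1 in WT at day 6. The KO arrays bracketed the WT arrays, with a log2 fold change of -0.003 (SE 0.17) and a 95% interval of -0.39 to 0.39. At day 4 the signals were 536.1 and 518.3 in KO, against 371.2 and 357.0 in WT, so that the groups did not overlap (log2 fold change 0.52, SE 0.17). This was the single tested gene with an unadjusted p under 0.05 at day 4, 0.0158 in limma's test, and its adjusted p was 0.583. The other Kit probe set, at 71.1 and 131.8 in KO and 37.5 and 45.2 in WT at day 4, gave 0.99 (limma adjusted p = 0.821). Kitl, the gene for stem cell factor, read 12053.7 to 16230.0 over the 8 arrays, with log2 fold changes of -0.04 at day 6 and 0.16 at day 4 for KO against WT (limma adjusted p = 0.976 and 0.902).

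Kit is also read from melanocytes, progenitor cells and some epithelia. Of 5 melanocyte genes 1 passed the filter, and their summed signal ranged over 282 to 351 in KO day 6, 323 to 411 in WT day 6, 329 to 352 in KO day 4 and 360 to 399 in WT day 4. None of the 5 was listed at 0, and the lowest value was 2.4, for Mlana. The endothelial list had Esam and Pecam1 highest by mean log2 signal over the 8 arrays, and 6 of 6 genes passed. Its sum was lowest where Kit was lowest, with 10125 to 11003 in KO day 6, 9607 to 14083 in WT day 6, 7589 to 9645 in KO day 4 and 5143 to 6758 in WT day 4. Tek went otherwise, with 418.8 and 658.8 in WT day 4 and 455.6 and 438.4 in KO day 6. Esam overlapped, with 2213.2 and 1312.5 in WT day 4 and 2535.7 and 1972.6 in KO day 4. The 10 genes most like Kit over the 8 arrays, led by Porcn (r = 0.981) and Slc19a1 (r = 0.973), held no gene of the endothelial or mast cell list. The part of vessel content in the Kit signal was not tested.

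Ms4a2, the beta chain of the high-affinity IgE receptor, lay below the filter. It read 11.1 and 95.2 in KO and 35.4 and 38.4 in WT at day 6, and 23.1 and 59.1 in KO and 44.1 and 97.3 in WT at day 4. The KO effects were 0.05 and -0.61 (SE 0.69 each, limma adjusted p = 0.995 and 0.950 over all genes). Its other probe set separated the groups of day 6, with 60.2 and 98.8 in KO and 19.8 and 7.6 in WT (log2 fold change 1.69, SE 0.52, limma adjusted p = 0.771). The 2 probe sets thus gave different pictures of a gene whose signals were mostly under the filter. Fcer1a, the alpha chain that binds IgE, read 159.3 and 261.4 in KO and 93.6 and 71.3 in WT at day 6 (log2 fold change 1.17, SE 0.39, limma adjusted p = 0.760). At day 4 Fcer1a read 115.4 and 71.9 in KO and 91.8 and 113.2 in WT.

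Hdc, histidine decarboxylase, read 927.1 and 815.9 in KO at day 6, against 387.6 and 260.0 in WT at day 6, with no overlap. At day 4 the replicates of each genotype stood far apart, at 98.3 and 321.8 in KO and 587.6 and 18.1 in WT, the last of these a low signal, above 13.3% of the probe sets on that array. The log2 fold change was 1.41 at day 6 (SE 1.11, limma adjusted p = 0.875) and 0.45 at day 4 (SE 1.11, limma adjusted p = 0.980), the wide errors reflecting the spread of the day 4 arrays, which the fit pools. Its other probe set repeated the order at day 6, with 273.0 and 276.5 in KO and 39.1 and 23.9 in WT (log2 fold change 2.63, SE 0.91, limma adjusted p = 0.773). At day 4 that probe set had the opposite sign, with 11.6 and 121.1 in KO and 227.3 and 21.5 in WT (log2 fold change -0.635, SE 0.91).

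Hdc is expressed by neutrophils and other myeloid cells as well as by mast cells and basophils. Among the genes most like Hdc over the 8 arrays were the neutrophil genes S100a9 and S100a8 (r = 0.947 each, ranks 7 and 8) and the inflammatory genes Cxcl5 and Il1b (r = 0.948 each), after Rai14 (r = 0.971), Sf3b3 and Coa6. S100a8 read 3528.6 and 2698.3 in KO and 1854.2 and 1582.8 in WT at day 6, and 709.0 and 2000.8 in KO and 5636.4 and 297.4 in WT at day 4. Like Hdc, it was higher in KO than in WT on every array of day 6, and at day 4 both were highest in WT replicate 1 and lowest in WT replicate 2. The neutrophil list was not uniform. At day 6 S100a9, Csf3r and Ltf also separated, while Cxcr2, Mmp9, Mmp8, Ngp and Camp overlapped. At day 4 S100a9 and Mmp9 had the same extremes, but Csf3r, Cxcr2 and Mmp8 were lowest in KO replicate 1. Ngp and Camp were highest in KO replicate 2, and Ltf was highest in WT replicate 2. S100a8 and S100a9 had the highest mean log2 signal of the 9 neutrophil genes and weigh most in their sum. That summed signal, with 7 of the 9 passing the filter, ranged over 8447 to 8613 in KO day 6, 4297 to 5100 in WT day 6, 2104 to 5192 in KO day 4 and 1492 to 12612 in WT day 4. The part of neutrophils in the Hdc signal was not tested. A further list held the 10 genes most like the mean profile of the 6 tested genes, from Samd5 (r = 0.977) over Psmd2, Mapk6, Aars, Inppl1, Slc7a5, Nmt1, Hax1 and Cep43 to Spef1l (r = 0.945).

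**Figure D3:**
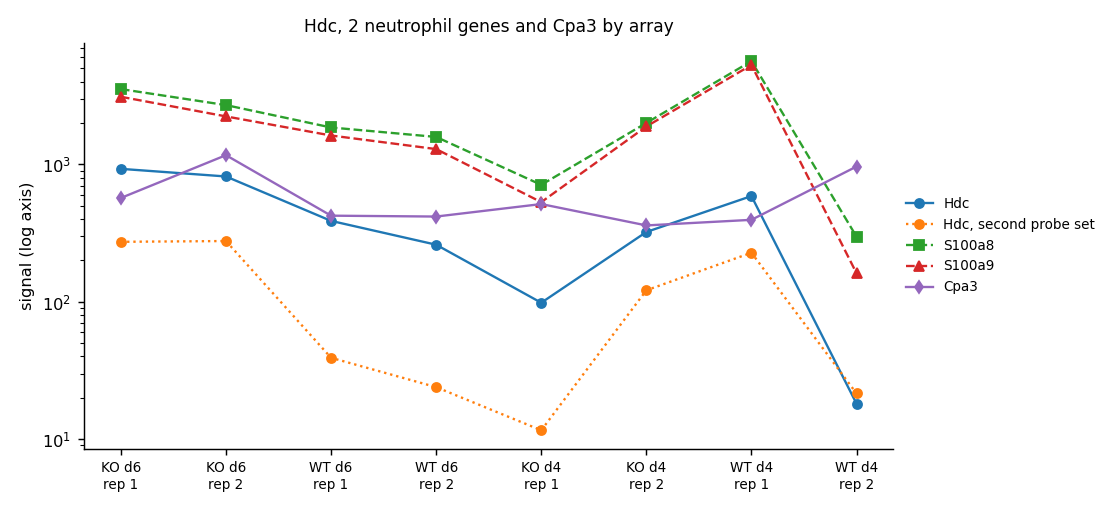
Signal on a log axis by array for Hdc (solid, and dotted for its other probe set), the neutrophil genes S100a8 and S100a9 (dashed), and Cpa3 (solid). Hdc runs parallel to S100a8 and S100a9, all lowest in WT day 4 replicate 2 for the probe set used, where Hdc reads 18.1 and S100a8 297.4, while Cpa3 there reads 963.8.

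Counted by overlap alone, 2 of the 6 tested genes, Cpa3 and Hdc, and 3 of all 8 with Tpsb2, had both KO arrays above both WT arrays at day 6. Over all tested genes the groups of day 6 did not overlap for 37.0%, in either direction. At day 4, 3 of 6 did not overlap, with Tpsab1 and Kit higher and Cma1 lower in KO, against 36.4% of all genes. A test of whether the KO effect differed between day 6 and day 4 called 0 of 6 (background 0%, 0 of 12976 genes), and 1 had an unadjusted p under 0.05, beside 4.38% of all genes. That gene was Cpa3, with a difference of 1.44 (SE 0.62, unadjusted p = 0.0476, limma adjusted p = 0.995). It was 0.81 without WT day 4 replicate 2 and 2.07 without WT day 4 replicate 1. The median difference over the 6 was 0.87, beside -0.028 over all tested genes.

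The comparison of day 6 with day 4 asked how mast cell RNA changed as the tumour formed, and since host sex changed with the day, it carries both. In KO hosts 0 of 6 tested genes were called by limma, against 6.23% of all tested genes, with 0 at an unadjusted p under 0.05 (26.1% of all genes) and a median log2 fold change of 0.40 beside 0 over all genes. In WT hosts 0 of 6 were called, against 5.83%, with 1 at an unadjusted p under 0.05 (25.6% of all genes) and a median of -0.25 beside 0.01. The days did not overlap for 4 of 6 genes in KO (61.4% of all genes), and for 2 of 6 in WT (53.6% of all genes).

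Kit, in WT hosts, came nearest to a call among the 6. In KO the Kit signals were 552.9 and 643.7 at day 6 and 536.1 and 518.3 at day 4 (log2 fold change 0.17, SE 0.17, limma adjusted p = 0.558). In WT it read 576.6 and 620.1 at day 6, against 371.2 and 357.0 at day 4, a log2 fold change of 0.69 (SE 0.17, 95% interval 0.30 to 1.08, limma adjusted p = 0.0529). Centring the arrays on their medians, which put the median of all tested genes at 0.21, against 0.01 before, gave 0.89 with an adjusted p of 0.0178, where 14.4% of all tested genes were called. A filter at the 60th percentile gave an adjusted p of 0.0433, where 9.03% were called. Its other probe set gave 0.99 (SE 0.42, limma adjusted p = 0.294). The difference between the genotypes in this change was -0.52 (SE 0.24, limma adjusted p = 0.995).

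Hdc in KO hosts was above its day 4 signals on both arrays of day 6, 927.1 and 815.9 against 98.3 and 321.8, a log2 fold change of 2.17 (SE 1.11, limma adjusted p = 0.253). The call depended on the WT arrays of day 4, which enter the pooled error. With the KO arrays alone limma's adjusted p was 0.0367, without WT day 4 replicate 1 it was 0.0329 and without WT day 4 replicate 2 it was 0.0292. In these 3 settings 13.5%, 10.3% and 10.5% of all tested genes were called, against 6.23% with all arrays. The fold change itself was 1.39 without KO day 4 replicate 1 and 2.95 without KO day 4 replicate 2. In WT hosts Hdc read 387.6 and 260.0 at day 6 and 587.6 and 18.1 at day 4, with day 6 inside the range of day 4 (log2 fold change 1.22, SE 1.11, limma adjusted p = 0.532). Leaving out WT day 4 replicate 1 gave 3.29, and leaving out WT day 4 replicate 2 gave -0.86. The other Hdc probe set gave -1.03 in WT and 2.24 in KO for day 6 against day 4 (SE 0.91 each). The WT direction thus rests on which day 4 array is kept and on which probe set is read.

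Tpsb2 in KO hosts read 18.2 and 77.1 at day 6, against 80.2 and 96.7 at day 4 (log2 fold change -0.88, SE 0.53, limma adjusted p = 0.386 over all genes). In WT hosts it read 8.1 and 9.0 at day 6, against 89.2 and 156.4 at day 4. The log2 fold change was -2.46 (SE 0.53), and fitted over all genes, where 3.05% were called, limma's adjusted p was 0.0495. The call held without either KO day 6 array (adjusted p = 0.0424 and 0.043) and was lost without any of the other 6 arrays (0.0878 to 0.274), and it was also lost with quantile normalisation (0.0585) and with the mean of both probe sets (0.254). The other Tpsb2 probe set went the other way, with 55.6 and 56.0 at day 6 and 52.9 and 9.1 at day 4 (log2 fold change 0.79).

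Mcpt4, Cma1 and Cpa3 were not called between the days. In KO their log2 fold changes for day 6 against day 4 were 0.47 for Mcpt4, 0.34 for Cma1 and 0.90 for Cpa3, with limma adjusted p-values of 0.584, 0.500 and 0.235. Those of WT hosts were -0.38, -0.54 and -0.54, with limma adjusted p-values of 0.677, 0.281 and 0.482. Tpsab1 stood at -0.60 in KO and -0.11 in WT (limma adjusted p = 0.451 and 0.910), and both KO arrays of day 6 were below both of day 4. Ms4a2 stood at 0.02 in KO and -0.64 in WT (limma adjusted p = 0.992 and 0.670 over all genes).

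**Figure D4:**
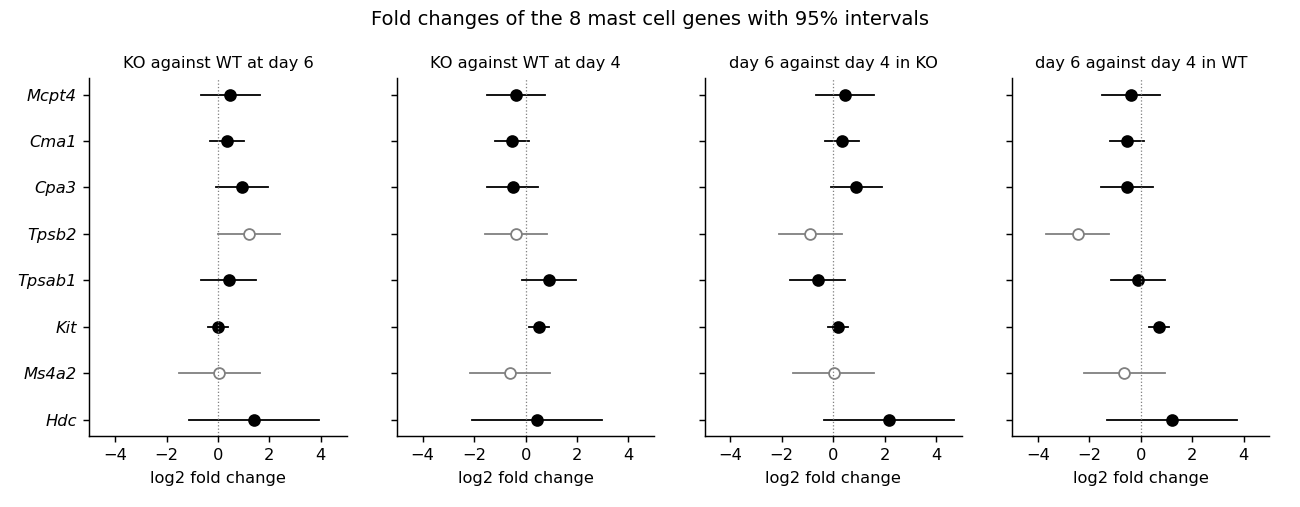
Log2 fold change on the log2(signal + 16) scale, with its 95% interval from the limma fit, for each of the 8 genes in 4 comparisons; grey open symbols mark Tpsb2 and Ms4a2, which lay below the filter and were fitted over all genes. Most intervals cross 0. Exceptions are Kit at day 4 (0.52) and in WT over time (0.69), and Tpsb2 in WT over time (-2.46).

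Other mast cell and basophil genes were read beside the 8. Mcpt2, a chymase of mucosal mast cells that was singled out after its values were seen, read 491.5 and 1335.9 in KO and 224.2 and 14.6 in WT at day 6 (log2 fold change 3.27, SE 1.09, limma adjusted p = 0.760). At day 4 it read 191.1 and 15.5 in KO and 8.4 and 10.1 in WT (log2 fold change 1.68, SE 1.09, limma adjusted p = 0.851). The KO arrays were above the WT arrays on both days, with the highest value in the array that held skin and muscle RNA. Over all tested genes the groups did not overlap, in either direction, for 37.0% at day 6 and 36.4% at day 4. The day 4 signals of 15.5, 8.4 and 10.1 lay below the 20th percentile of their arrays (29.6 to 33.8). Mcpt2 passed the filter through its high KO signals of day 6, so its fold change there is a description only. Mcpt8, the protease of mouse basophils, read 519.5 and 1610.1 in KO and 1054.2 and 390.8 in WT at day 6, and 459.0 and 402.1 in KO and 232.4 and 236.6 in WT at day 4. Gata2, which mast cells and basophils need but other cells also express, read 563.3 and 710.2 in KO and 487.7 and 330.8 in WT at day 6 (log2 fold change 0.63, SE 0.25, limma adjusted p = 0.763). At day 4 Gata2 read 426.9 and 362.8 in KO and 307.0 and 381.0 in WT, so that the groups overlapped. Eosinophil genes summed to 52 to 138 over the 8 arrays, and 0 of the 4 passed the filter.

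The wider pathway lists, chosen with earlier results of these data known, held 86 genes, of which 76 had a probe set and 62 were tested. For KO against WT, 0 of the 62 were called at day 6, and 1 was called at day 4, lower in KO. It was Serpina3n, a serine protease inhibitor, at 659.1 and 562.0 in KO and 2130.2 and 2682.2 in WT (log2 fold change -1.95, SE 0.19, limma adjusted p = 0.0264). The call was lost without either WT day 6 array, either KO day 4 array or WT day 4 replicate 2. Between the days, 7 rose and 1 fell in KO hosts, 12.9% of the 62 beside the 6.23% of all genes. Without either KO day 6 array 2 rose and 0 fell (all genes 1.23% without replicate 1 and 1.14% without replicate 2), and without either KO day 4 array 1 rose and 0 fell (0.0231% and 0.0385%). In WT hosts 3 rose and 2 fell, 8.06% beside 5.83%. When arrays were left out 1 at a time, 0 to 2 rose and 0 to 4 fell, with 0 of both without WT day 6 replicate 1 (0.0308% of all genes). The list medians were -0.10 and -0.28 for KO against WT at day 6 and day 4, and 0.29 and 0.05 for day 6 against day 4 in KO and WT.

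Most genes called here are also expressed by leukocytes other than mast cells. Gzmb, granzyme B, best known from cytotoxic lymphocytes, rose by a log2 fold change of 3.54 in KO (SE 0.27, limma adjusted p = 0.00206) and 2.40 in WT (adjusted p = 0.0132). It kept its KO call whichever of the 8 arrays was left out and lost its WT call without WT day 6 replicate 1. Among 11 tested receptors, 4 rose in KO, where 6.23% of all tested genes were called in either direction. They were Csf2rb, the shared beta chain of the IL-3, IL-5 and GM-CSF receptors (1.51), its mouse paralogue Csf2rb2 (1.23), and the IgG receptors Fcgr3 (1.02) and Fcgr2b (0.87). Csf2rb was the 1 that also rose in WT (0.66, limma adjusted p = 0.0351). Csf2, which encodes GM-CSF, rose in both KO (2.33) and WT (2.03), and Slpi, a leukocyte protease inhibitor, rose in KO (1.62). Csf2 read 129.8 to 250.5 at day 6 and passed the filter through these signals. At day 4 it read 28.2 and 18.7 in KO and 66.1 and 26.6 in WT. All but the 66.1 lay below the 20th percentile of their arrays (29.0 to 33.8). The rises of Csf2 are therefore a description only, though they are counted among the 7 in KO and the 3 in WT given above. Ltc4s, the leukotriene C4 synthase, fell in KO (-2.28, limma adjusted p = 0.0326), and Ikzf2, a transcription factor, fell in WT (-0.99, limma adjusted p = 0.0453). Serpina3n fell in WT (-1.005, limma adjusted p = 0.0252). In KO, Csf2rb lost its call without either KO day 4 array, and Csf2rb2, Fcgr3, Fcgr2b, Csf2, Slpi and Ltc4s each lost theirs whichever of the 4 KO arrays was left out. In WT, leaving out 1 of the 8 arrays lost the call of Csf2 in 8 cases, of Ikzf2 in 7 (KO day 6 replicate 2 and WT day 4 replicate 2 among them), of Csf2rb in 6 and of Serpina3n in 4 (WT day 4 replicate 2 among them). Of 11 tested genes of IgE receptor signalling and 3 of histamine reception and breakdown, 0 were called in any of these comparisons, where the widest log2 fold changes were those of the adaptor Lat (1.48, limma adjusted p = 0.269) and of Hnmt, the enzyme that methylates histamine (-1.09, limma adjusted p = 0.124), both for day 6 against day 4 in KO.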

How the data were processed

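Per array and probe set, the deposited value is a linear signal intensity that the submitters' processing notes credit to MAS5 (no version is named in the sources used here). The values keep the authors' scaling, which set the 2% trimmed mean to 1000.01 on each array. Detection calls were not used here. For each of 18194 genes the probe set of highest mean log2 signal was used, and a gene was tested if that mean was no lower than the 40th percentile of probe-set means (a signal of 78.6), which left 12976 genes. Log2(signal + 16) was fitted with limma 3.58.1 in R 4.3.3 over the 4 groups of 2 arrays together (4 residual degrees of freedom, eBayes with trend, Benjamini-Hochberg over all genes tested). Fold changes of low genes are understated on this scale. Symbols came from the platform annotation, and no probe coordinates are printed because no build is named.

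The 8 genes and all gene lists were chosen with earlier results of these data known. The rule for other named genes took, from each other list, up to 4 called genes by size of the fold change, or else up to 3 with the widest fold change, and the 2 brightest genes of a cell type's list. Fcer1a, Gata2, Mcpt2, Mcpt8, Kitl and the genes most like a single member were named beyond it. In simulated data shaped on the contrast of KO with WT at day 6 (12976 genes, 200 changed), 47.8% of changes of 1 and 84% of changes of 2 on the log2 scale were recovered. These rates are averages over genes drawn from all those tested, with independent noise, and were not computed for the 8 genes. The number of arrays limits the precision. Leaving out each array in turn for the pathway lists was an alternative chosen after seeing the data.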

Additional observations from a re-analysis of the deposited data

How the results depend on the processing

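Of 994 recomputed values (48 gene-by-comparison results under the alternatives), 916 kept their direction and their side of the threshold. Of the others, 54 changed sign, 15 lost a call and 9 gained one, and the cause was not tested. Several alternatives cannot alter a fold change: another filter, eBayes without trend, replicate as a block, only the groups compared, the t-test, or leaving out an array outside the contrast. Directions kept there were fixed in advance and are no support. Tpsb2 between the days in WT was the only call in the main fit, so the other results had none to lose. The count of called genes among those tested went from 0 to 1 for KO against WT at day 6 and at day 4 under the methods' t-test without adjustment (Hdc and Kit), for day 6 against day 4 in WT with median centring, the 60th percentile filter or that t-test (Kit), with no filter (Tpsb2) and when arrays were left out 1 at a time (range 0 to 1), and for day 6 against day 4 in KO with only the groups compared (Hdc) and when arrays were left out (range 0 to 1). Over all tested genes the share called was then 5.86% and 6.28% for KO against WT at day 6 and day 4; for the WT days 14.4%, 9.03%, 10.8%, 3.05% with no filter and 2.76% without WT day 4 replicate 1; and for the KO days 13.5%, and 10.3% and 10.5% without WT day 4 replicate 1 and 2. After Benjamini-Hochberg the t-test called 0 of 6 in each comparison it was run on.

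For KO against WT at day 6, Kit was 0.054 with quantile normalisation and 0.062 with median centring, and Ms4a2 was -0.15 with a pseudocount of 1; without KO day 6 replicate 2 and WT day 4 replicate 2 together, Mcpt4 was -0.025 and Ms4a2 -0.964. At day 4 the mean of all probe sets gave 0.24 for Tpsb2, 0.043 for Ms4a2 and -0.091 for Hdc, and leaving out those 2 arrays gave 0.20 for Mcpt4, 0.12 for Cpa3 and -1.62 for Hdc. Over both days, Ms4a2 was 0.46 with the mean of all probe sets and Hdc -0.06 without the 2 arrays. For day 6 against day 4 in WT, Tpsab1 was 0.082 with quantile normalisation and 0.046 with median centring, and without the 2 arrays Mcpt4 was 0.19, Cpa3 0.09 and Hdc -0.855. In KO, Ms4a2 was -0.16 with a pseudocount of 1, Kit -0.013 with the mean of all probe sets, and without the 2 arrays Mcpt4 was -0.035 and Ms4a2 -1.0. The difference between the days was then -0.23 for Mcpt4 and -0.82 for Ms4a2.

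For KO against WT at day 6, leaving out 1 array at a time changed the sign of Kit (-0.110 to 0.104), Mcpt4 (-0.025 to 0.989) and Ms4a2 (-0.964 to 1.072). For KO against WT at day 4, leaving out 1 array at a time changed the sign of Cpa3 (-1.136 to 0.119), Hdc (-1.619 to 2.527) and Mcpt4 (-0.946 to 0.202). For KO against WT over both days, leaving out 1 array at a time changed the sign of Cma1 (-0.266 to 0.058), Cpa3 (-0.102 to 0.526), Hdc (-0.105 to 1.967), Mcpt4 (-0.232 to 0.342) and Ms4a2 (-0.786 to 0.233). For day 6 against day 4 in KO, leaving out 1 array at a time changed the sign of Mcpt4 (-0.035 to 0.979) and Ms4a2 (-1.0 to 1.037). For day 6 against day 4 in WT, leaving out 1 array at a time changed the sign of Cpa3 (-1.169 to 0.087), Hdc (-0.855 to 3.291), Mcpt4 (-0.956 to 0.191) and Tpsab1 (-0.597 to 0.375). For the difference between the days, leaving out 1 array at a time changed the sign of Hdc (-1.119 to 3.027) and Ms4a2 (-0.358 to 1.679).

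Whether replicate numbers pair the arrays cannot be told, since the labels tie no animals to them. Correlations of deviations between same-numbered arrays ran from -0.12 to 0.27, and the arrays with muscle RNA were all numbered replicate 2. With replicate as a block, 0 of 6 genes were called in each comparison, the Kit change in WT had an adjusted p of 0.0809 and Tpsb2 lost its call (0.0571). At 2 arrays a group, changes of 1 on the log2 scale were recovered in 47.8% of simulated cases for KO against WT at day 6, so smaller changes would often be missed, and signals under the filter limit Tpsb2 and Ms4a2.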
